A study of Homo sapiens with 7 samples.

Results

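The termination zones of isolated gene ends were examined by ChIP-seq, the sequencing of DNA precipitated with an antibody. The antibody recognised pThr4, phosphorylated threonine 4 in the repeats of the RNA polymerase II tail, the C-terminal domain. A zone ran from the transcription end site (TES), the last annotated base of a gene, to 20 kb downstream along transcription. Members were protein-coding genes of at least 5 kb with no other gene of any biotype within those 20 kb, and 3523 of 16633 gene ends met this rule. Their zones cover 70.46 Mb, and 358 of them overlap the zone of another member. The genes had a median length of 52118 bp, from 5005 to 2298757 bp, and the next gene lay a median of 38197 bp downstream, from 20008 to 5616643 bp.

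The libraries came from HEK293, an established human embryonic kidney cell line. Nuclear lysate was divided into matched aliquots and incubated in vitro with SCP1, a phosphatase that acts on serine 5 of the repeat, either as active wild type (active SCP1) or as the catalytically inactive D96A mutant (inactive SCP1). The immunoprecipitation that followed used the pThr4 antibody 6D7 in 3 biological replicates per group. The question of the comparison is where pThr4 next to phosphorylated serine 5 escapes the antibody until that phosphate is removed. Both groups share the same cells, fixation and antibody, and an IgG control was not analysed here.

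After RNA polymerase II passes the polyadenylation signal, the transcript is cleaved and the polymerase continues downstream until it is released. This stretch is the termination zone. The C-terminal domain consists of repeats of a heptapeptide whose residues are phosphorylated in changing combinations along a gene, and cleavage and termination factors read these marks. Threonine 4 phosphorylation is known for its rise toward and beyond the 3′ ends of genes. An isolated end has no other annotated gene inside its zone.

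The whole lists held 12625, 6680 and 36892 peaks in active SCP1 replicates 1 to 3 and 2466, 1163 and 2699 peaks in inactive SCP1 replicates 1 to 3. Active replicate 3 stood apart by its number of peaks. The lowest listed −log10 p-value differed between lists, from 3.08 in active replicate 3 to 4.23 in inactive replicate 1 and higher still in inactive replicate 2, so longer lists admitted weaker peaks. The main values of the zones were therefore also compared between groups on lists cut to 1163 peaks with the highest −log10 p-value (equal peak number). They were compared as well on lists cut at a −log10 p-value of 6 (common p cutoff). Where no cut form is named, values come from the lists as deposited. The lists hold no read counts and depth is unknown. Peak number per list and SCP1 activity cannot be told apart in the lists as deposited. Cutting a list removed whole peaks, and the kept peaks retained the edges called in the full list. For covered length, reach and first start, the cut lists therefore cannot tell peak number and SCP1 activity apart either.

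Peaks also marked the starts of some of these genes, and the promoters of 3 are shown because the start and the end of a gene could be read together there. DDX56, an RNA helicase, and SNRPB, a core protein of spliceosomal small nuclear ribonucleoproteins, had zone peaks in all 6 libraries and a peak within 1 kb of the start in all 3 active libraries and in inactive replicate 3. YBX1, a DNA- and RNA-binding protein, had zone peaks in all 6 libraries and no promoter peak in any. These genes were chosen after their values were seen. The sequences are the 250 bases before each gene start from RefSeq, GRCh38.p14, on the strand of the gene: chr7:44573909-44574158 (−) for DDX56, chr20:2470790-2471039 (−) for SNRPB and chr1:42682168-42682417 (+) for YBX1. Capitals mark matches on either strand to the CCAAT box, searched by those letters, or to the GC box, searched as GGGCGG. The TATA box, searched as TATAAA, matched none of them.
DDX56: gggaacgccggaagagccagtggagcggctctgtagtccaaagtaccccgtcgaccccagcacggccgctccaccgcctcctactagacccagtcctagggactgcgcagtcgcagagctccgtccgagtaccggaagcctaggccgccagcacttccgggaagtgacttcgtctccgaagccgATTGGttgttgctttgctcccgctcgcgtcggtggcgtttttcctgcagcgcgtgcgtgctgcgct
SNRPB: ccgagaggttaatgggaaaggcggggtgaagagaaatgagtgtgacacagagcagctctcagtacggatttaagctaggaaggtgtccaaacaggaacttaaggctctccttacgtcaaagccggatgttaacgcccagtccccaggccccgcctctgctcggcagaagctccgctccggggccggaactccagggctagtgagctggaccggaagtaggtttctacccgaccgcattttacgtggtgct
YBX1: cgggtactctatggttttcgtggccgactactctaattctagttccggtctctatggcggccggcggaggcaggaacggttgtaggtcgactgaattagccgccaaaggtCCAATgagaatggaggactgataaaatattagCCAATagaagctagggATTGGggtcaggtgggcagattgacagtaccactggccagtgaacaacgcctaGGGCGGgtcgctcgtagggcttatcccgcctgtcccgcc
The CCAAT letters were found in 32.0% of 35116 RefSeq promoter windows of this length, those of the GC box in 42.6% and those of the TATA box in 10.7%. DDX56 had 1 CCAAT match, SNRPB had none of the searched motifs, and YBX1 had 3 CCAAT matches and 1 GC box match. GC content was 64.8%, 56.8% and 55.2%, beside a median of 58.0% over all windows. The nearest gene upstream lay 3986 bp from the DDX56 start, 11028 bp from that of SNRPB and 764 bp from that of YBX1.

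Past the gene end, peaks were found at more zones after treatment with active SCP1. Among the 3523 zones, 553, 348 and 1138 had a peak in active replicates 1 to 3 and 158, 76 and 166 in inactive replicates 1 to 3. The share was 19.3% ± 11.6 (SD, n = 3) with active and 3.78% ± 1.41 (SD, n = 3) with inactive SCP1, a 4.79-fold difference of geometric means. Every active library lay above every inactive library, which gave p = 0.1 in the two-sided exact permutation test, the smallest value that 3 against 3 libraries allow. At equal peak number the shares were 1.82, 2.36 and 2.19% with active and 2.02, 2.16 and 1.96% with inactive SCP1, the groups overlapped, and the log2 ratio was 0.05 (exact permutation p = 0.7). With the common p cutoff the shares were 2.81, 2.41 and 3.35% against 1.36, 0.993 and 1.36%, a log2 ratio of 1.21 (exact permutation p = 0.1).

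Peak names differ between replicate 3 and replicates 1 and 2 in both groups. With replicates 1 and 2 alone the share as deposited was 12.8% ± 4.11 against 3.32% ± 1.65 (SD, n = 2), where the exact permutation p cannot go below 0.333.

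The length covered per zone differed in all 3 forms of the lists, which share the same called peak edges. At equal peak number the list of inactive replicate 2 was kept whole, and that of active replicate 3 was cut from 36892 peaks. A zone with a peak had a mean of 1532 ± 233 bp (SD, n = 3) under peaks with active SCP1 and 1141 ± 88.5 bp with inactive SCP1 as deposited. At equal peak number the values were 2324, 1867 and 3034 bp in active libraries and 1527, 1085 and 1447 bp in inactive libraries, and the groups did not overlap. With the common p cutoff they were 2242, 1863 and 2683 bp against 1583, 1520 and 1580 bp. Each of these gave p = 0.1 in the exact permutation test. As deposited, 1.57% ± 1.18 (SD, n = 3) of all zone bases lay under a peak with active and 0.218% ± 0.0879 with inactive SCP1.

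**Figure D1:**
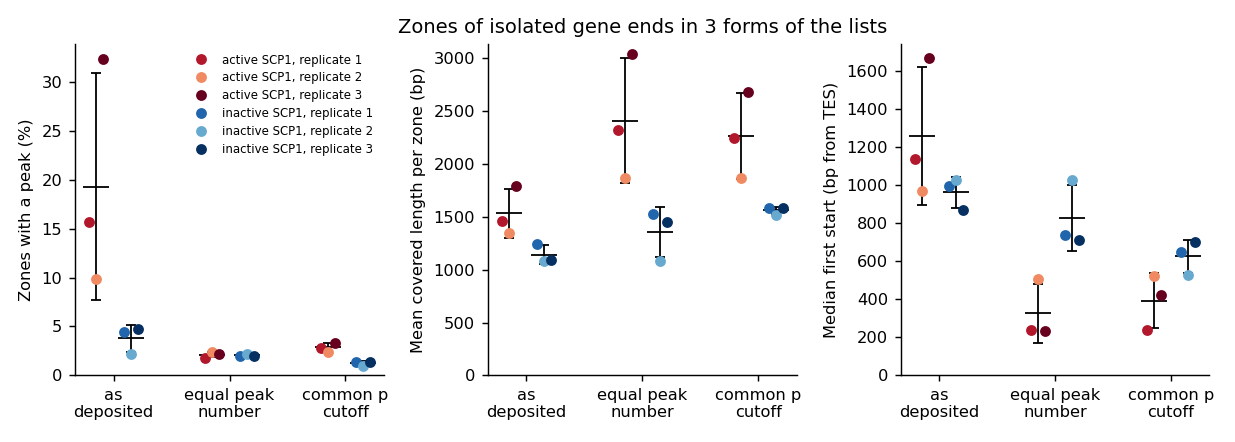
Values of the 6 libraries (points), with group mean and SD (bars, n = 3), for the share of zones with a peak (%), the mean covered length per zone with a peak (bp) and the median start of the first peak (bp from the TES), in lists as deposited, at equal peak number and with the common p cutoff. The share of zones with a peak overlapped between groups at equal peak number, the covered length stayed higher in the active libraries in all 3 forms, and the first start changed its order.

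As deposited, the highest signal lay at the same distance in the 6 libraries. Coverage in 500 bp bins was highest from 1000 to 1500 bp past the TES in every library, where 5.00, 3.56 and 9.72% of bases lay under a peak in active libraries and 1.45, 0.754 and 1.76% in inactive libraries. It was lower in the bin just past the TES, at 3.82, 2.17 and 6.81% in active libraries and 0.984, 0.323 and 0.853% in inactive libraries. Coverage fell below 50% of its maximum from 3000, 3000 and 4000 bp on in active libraries and from 3000, 2500 and 2500 bp on in inactive libraries (difference of means 667 bp, exact permutation p = 0.3). Among members with no gene within 50 kb the highest bin was centred on 1250 bp in active libraries and 750 bp in inactive libraries (exact permutation p = 0.1). At equal peak number and with the common p cutoff the mean centre was 1083 and 917 bp in the active libraries and 1250 bp in the inactive ones.

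The distal part of the zone held more of the coverage with active SCP1 in the lists as deposited, the only form in which it was computed. The first 5 kb held 73.5, 80.2 and 59.4% of all covered zone bases in active libraries and 81.8, 82.5 and 81.4% in inactive libraries, with no overlap of the groups (exact permutation p = 0.1). Between 10 and 20 kb the shares were 11.7, 7.35 and 21.7% against 7.52, 6.37 and 4.92%, where active replicate 2 lay below inactive replicate 1 (exact permutation p = 0.2). In the last 5 kb, 0.250, 0.0656 and 1.06% of bases were covered in active libraries and 0.0424, 0.0118 and 0.0183% in inactive libraries.

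**Figure D2:**
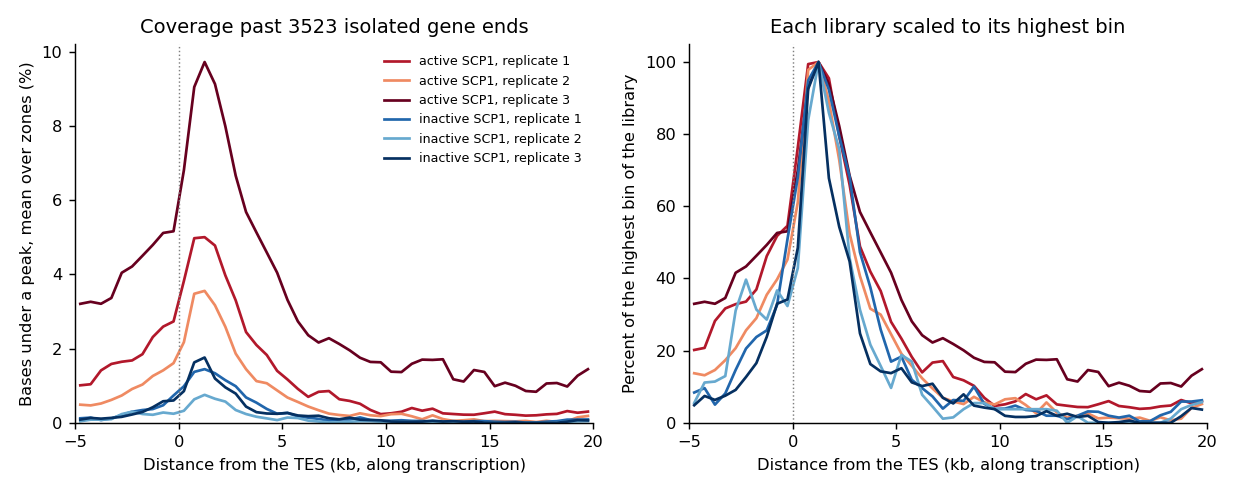
Share of bases under a peak (%, mean over 3523 members) in 500 bp bins from 5 kb before to 20 kb past the TES, one line per library, and the same lines scaled to the highest bin of each library. All 6 lines have their highest bin from 1000 to 1500 bp, and active replicate 3 has the highest line throughout before scaling.

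Reach, the distance from the TES to the farthest covered base of a zone, was counted at zones with a peak. The median was 3123, 2620 and 6398 bp in active libraries and 2558, 2205 and 2235 bp in inactive libraries, so the groups did not overlap (difference of means 1714 bp, exact permutation p = 0.1). Without active replicate 3 the difference was 539 bp, and with replicates 1 and 2 of both groups 490 bp. At equal peak number it was 514 bp and with the common p cutoff 681 bp, both with p = 0.1 in the exact permutation test. A stricter measure followed only the run of peaks that began within 2 kb of the TES and had gaps of at most 1 kb, and there the difference was 178 bp (exact permutation p = 0.2). Zones reached past 10 kb made up 17.2, 10.9 and 37.0% of zones with a peak in active libraries and 6.33, 5.26 and 5.42% in inactive libraries.

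A direct comparison at the same places was possible for the 58 zones with a peak in all 6 libraries. Their median reach was 4247, 3092 and 6681 bp in active libraries and 2820, 2424 and 2755 bp in inactive libraries (difference 2007 bp, exact permutation p = 0.1). At the 26 zones shared by all lists at equal peak number it was 3371, 3092 and 4068 bp against 2838, 2159 and 2830 bp, again with p = 0.1 in the exact permutation test. The joined run from the TES also ended farther out at the 58 zones, at 2811, 2516 and 3575 bp against 2088, 1768 and 2034 bp (exact permutation p = 0.1). Without active replicate 3 the reach difference was 1003 bp. Median covered length was 2854, 2383 and 3643 bp against 1699, 1019 and 1547 bp, a 2.08-fold difference (exact permutation p = 0.1). The first peak of these zones began a median of 112, 233 and −19.5 bp from the TES in active libraries and 533, 851 and 613 bp in inactive libraries, where a negative value lies inside the gene (exact permutation p = 0.1). Peaks at shared zones thus began nearer the gene and ended farther from it in each active library. In 57 of the 58 zones the mean reach was longer with active SCP1, by a median of 1329 bp. In 24 zones (41.4%) every active library reached farther than every inactive one and in 0 the reverse held. Over all gene ends with a peak in all 6 libraries the shares were 54.3% and 0.098%, so the isolated ends were not above the background.

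The order of the zones by reach was described by rank. Spearman's rho over the 58 zones was 0.57 to 0.85 between active libraries, 0.79 to 0.83 between inactive libraries and 0.42 to 0.81 across groups. These values describe zones, which are not replicates, and the lowest ones involved active replicate 3.

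**Figure D3:**
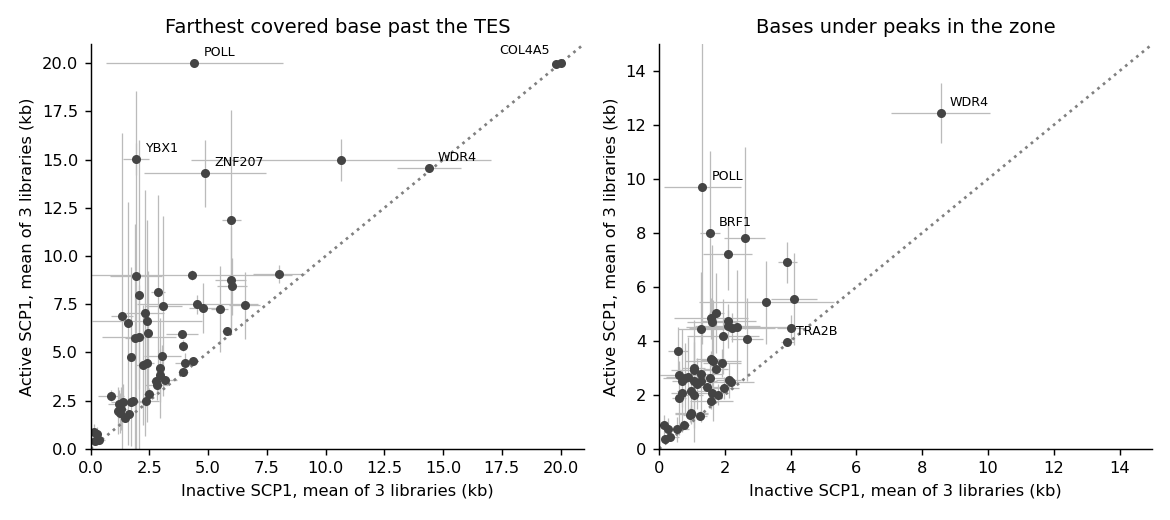
Mean reach past the TES (kb) and mean covered length (kb) at the 58 zones with a peak in all 6 libraries, inactive SCP1 on the horizontal and active SCP1 on the vertical axis, with SD over 3 libraries and the line of equal values. In reach, 57 of 58 points lie above the line.

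The start of the first peak over all zones with a peak gave no stable order. It lay at 1137, 972 and 1668 bp in active libraries and 994, 1026 and 872 bp in inactive libraries as deposited, with the groups overlapping (exact permutation p = 0.3). At equal peak number it lay at 241, 506 and 232 bp against 740, 1026 and 712 bp, the reverse direction (exact permutation p = 0.1). With the common p cutoff the values were 238, 520 and 422 bp against 647, 530 and 703 bp, also earlier in the active libraries (exact permutation p = 0.1). As deposited, a first peak more than 5 kb past the TES was found at 94, 46 and 312 zones in active replicates 1 to 3 and at 20, 6 and 24 zones in inactive replicates 1 to 3. As shares of the zones with a peak these were 17.0, 13.2 and 27.4% against 12.7, 7.89 and 14.5%, with the groups overlapping. Between 13.2 and 17.9% of the zones with a peak had one that crossed the TES from inside the gene, over the 6 libraries.

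Peak strength in the zones was close to that of the other peaks of the same list. The median fold enrichment of zone peaks was 3.45, 3.58 and 3.16 in active libraries and 3.85, 3.96 and 3.85 in inactive libraries. Outside the zones it was 3.39, 3.53 and 3.11 and 3.85, 3.88 and 3.84. The log2 ratio of zone to other peaks was 0.023 ± 0.0044 with active and 0.011 ± 0.015 with inactive SCP1 (SD, n = 3; exact permutation p = 0.4). The median −log10 p-value of zone peaks exceeded that of other peaks by 0.170, 0.0793 and 0.126 in the active libraries and fell below it in the inactive ones, with differences of −0.103, −0.117 and −0.107 (exact permutation p = 0.1). At equal peak number this difference between groups was reversed, at −0.280 (exact permutation p = 0.4).

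Isolated ends held less coverage than crowded ends and far more than the regions before isolated starts. Against the 20 kb past the 13110 other gene ends, which can hold genes of their own, covered share in the zones had a log2 ratio of −2.10 ± 0.15 (SD, n = 6), lower in 6 of 6 libraries. Against the 20 kb before 3679 isolated gene starts the log2 ratio was 3.97 ± 1.17 and positive in 6 of 6 libraries. Active replicate 3 had the lowest value, 1.80, with a peak at 18.6% of the upstream windows beside 2.53% or less in the other libraries. The first 5 kb past the TES exceeded the last 5 kb of the same genes by 1.21 ± 0.37, in 6 of 6 libraries. Each of these 3 comparisons gave p = 0.03125 in the exact sign-flip permutation test over 6 libraries, the smallest possible, and 0.03125 after Benjamini-Hochberg adjustment. This test takes the 6 libraries as independent. If active and inactive libraries shared lysates, 3 units would remain, and the sign-flip test could not go below 0.25. The groups differed by −1.59 in the second log2 ratio (exact permutation p = 0.1), and by less in the others (0.09 and −0.49, exact permutation p = 0.7 and 0.2).

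The share of zones with a peak differed with gene length and neighbourhood, given here without a test. Genes of 20 to 100 kb had a peak at 23.1% ± 13.1 of 1556 zones with active and 4.86% ± 2.03 with inactive SCP1 (SD, n = 3). Genes over 100 kb had one at 14.5% ± 9.94 and 1.60% ± 0.873 of 1147 zones. Their first peaks also lay farther out, at a median of 1676, 1538 and 2317 bp in the active libraries, beside 614, 606 and 933 bp for genes under 20 kb. Where the next gene was over 100 kb away, 9.49% ± 5.52 and 1.57% ± 1.18 of 467 zones had a peak. With the next gene on the same strand the share was 20.3% ± 12.6, and on the opposite strand 19.0% ± 11.2, with active SCP1.

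The orientation of a near neighbour moved with the distal coverage. Among zones whose next gene lay within 25 kb on the opposite strand, 1.34, 0.428 and 3.42% of the bases from 15 to 20 kb were covered in active libraries and 0.410, 0.141 and 0.203% in inactive libraries. With the next gene within 25 kb on the same strand the values were 0.306, 0.143 and 1.29% and 0.0480, 0 and 0%. The difference was positive in 6 of 6 libraries, with a mean of 0.692 percentage points (exact sign-flip permutation p = 0.03125, a comparison chosen after the values were seen and not adjusted). The test takes the 6 libraries as independent. On the opposite strand 14, 9 and 37 zones had such peaks in active libraries and 5, 2 and 4 in inactive libraries. On the same strand 5, 1 and 30 and 1, 0 and 0 zones had them. In inactive replicate 2 the opposite-strand zones were those of COL4A5 and SLC22A17, which had peaks there in all 6 libraries. With no gene within 50 kb, coverage from 15 to 20 kb was 0.641% or less in every library. The far end of a zone with a convergent neighbour can hold sequence past the end of that neighbour, and such peaks count toward reach.

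Zone peaks were more frequent among genes with a promoter peak in the same active library. Of these genes, 33.3, 24.6 and 51.7% also had a zone peak in the active libraries (39 of 117, 14 of 57 and 243 of 470 genes), beside 15.1, 9.64 and 29.3% of genes without one. In the inactive libraries 22, 8 and 25 members had a promoter peak, and 2, 1 and 3 of them also had a zone peak. Most zone peaks in inactive libraries stood alone, with neither a promoter nor a gene-body peak at 82.9, 89.5 and 85.5% of zones with a peak. In the active libraries this share was 55.7, 67.2 and 30.9%. It was highest in the shortest list, with 1163 peaks, and lowest in the longest, with 36892 peaks. The share was not computed at equal peak number or over all gene ends, so peak number and SCP1 activity cannot be told apart in it.

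Gene groups differed in how often their isolated ends carried pThr4. Groups were formed by the start of the symbol, which leaves out genes of like function with other names, such as TRA2B, YBX1 and SFPQ, each with a peak in all 6 libraries (SFPQ is named after its values were seen). In all, 35.1% of members had a peak in any library, beside 56.8% of all gene ends. In translation and the proteasome 16 of 18 zones had a peak in any library, with 12, 10 and 16 in active replicates 1 to 3 and 9, 3 and 7 in inactive replicates 1 to 3. Chromatin regulators had a peak at 11 of 17 zones, zinc finger genes at 53 of 99, splicing and RNA-binding factors at 12 of 25, ubiquitin conjugation genes at 20 of 51 and solute carriers at 29 of 81. Ubiquitin conjugation genes and solute carriers, at 39.2 and 35.8%, lay near the share of all members. Few zones had a peak among developmental transcription factors with 7 of 34, genes known for other tissues with 2 of 13, ion channels and transmitter receptors with 8 of 83 and cell adhesion genes with 2 of 35. In those last 4 groups no zone had a peak in an inactive library, where the mean share per library over all members was 3.78%. In a single library, a count of 0 allows a share of up to 8.82, 23.1, 3.61 and 8.57% in these groups in turn, close to or above that mean. The count of 0 over all inactive libraries together was not set against the share of members with a peak in any of them. This limit takes the zones of a group as independent. Active replicate 3 carried much of these counts. Without it, a choice made after seeing the data, 656 members had a peak in any library, with 32 zinc finger genes, 14 solute carriers, 8 chromatin regulators, 12 translation and proteasome genes, 11 splicing and RNA-binding factors and 16 ubiquitin conjugation genes. The last 4 groups then had 5, 1, 1 and 1. Median gene length also differed, at 23.6 kb for translation and the proteasome and 27.6 kb for developmental transcription factors. It was 101 kb for chromatin regulators, 117 kb for ion channels and transmitter receptors and 158 kb for cell adhesion genes. The part of gene length in these counts was not tested. Expression was not measured, and zinc finger and ribosomal protein genes have near-identical copies to which reads may align.

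**Figure D4:**
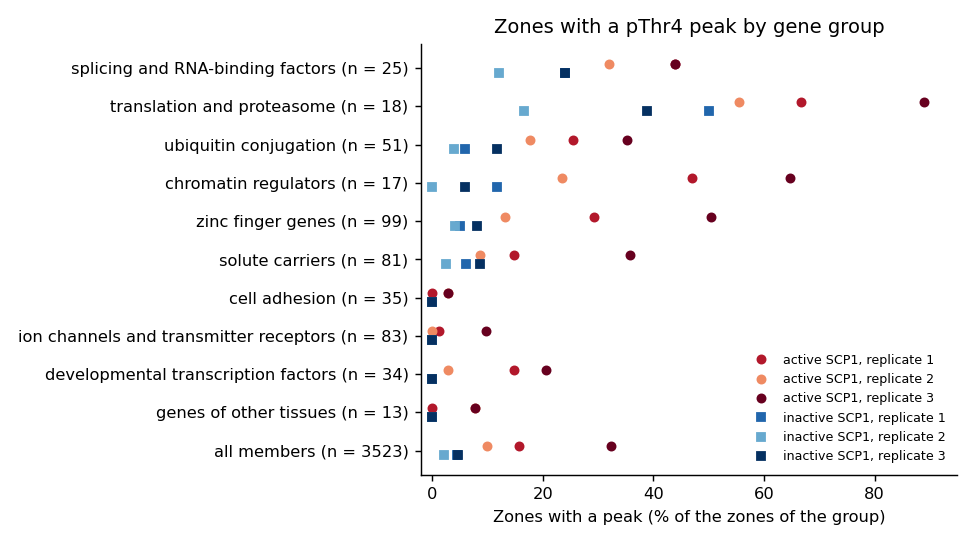
Share of the zones of each gene group with a peak (%), one point per library (circles active, squares inactive SCP1), with the number of members per group. Translation and proteasome genes have the highest points and the last 4 named groups lie at 0% in every inactive library.

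Some ends had peaks far past the TES in every library. WDR4, a subunit of a tRNA methyltransferase (zone chr21:42823094-42843093, GRCh38, minus strand), had 12732, 11222 and 13369 bp under peaks in active libraries and 10011, 6990 and 8667 bp in inactive libraries. Its reach was 14569, 14524 and 14603 bp against 15666, 12945 and 14563 bp, with the groups overlapping. The difference at WDR4 lay at the near side, where the first peak began at 1838, 1846 and 1235 bp with active and at 4499, 4863 and 4873 bp with inactive SCP1.
AMD1, which makes decarboxylated S-adenosylmethionine for polyamine synthesis (zone chr6:110895714-110915713, plus strand), reached 9290, 6726 and 9252 bp against 5378, 6046 and 6647 bp. Each active library lay above each inactive one there. TPT1 and HNRNPD had lowest reaches of 5791 and 4666 bp over the 6 libraries, with the groups overlapping at both. Under peaks at TPT1 lay 3317 to 6932 bp, and at HNRNPD 589 to 6759 bp.

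COL4A5, a chain of basement membrane collagen (zone chrX:108697546-108717545, plus strand), and SLC22A17, a transporter family member (zone chr14:23326311-23346310, minus strand), led the list by lowest reach only through peaks at the far edge. At COL4A5 a single peak per library began 17619 to 18831 bp past the TES and ran on to 27045 to 28936 bp, beyond the near end of the next gene, IRS4, at 22401 bp. At SLC22A17 the peaks began at 18430 bp or later, apart from an added peak from 2325 bp in active replicate 3, and the next gene, BCL2L2-PABPN1, lay at 20148 bp. Neither zone had a peak in its first 2 kb in any library. At AGFG1 no peak began before 6332 bp and 449 to 2382 bp were covered, with a lowest reach of 7070 bp. At LONRF3 the peaks covered 303 to 1238 bp and began at 5034 bp or later apart from one from 381 bp in active replicate 3, with a lowest reach of 5603 bp.

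Of the 6 zones with the strongest shared peaks, that of WDR4, given above, had a highest fold enrichment of 4.98 or more in every library. SNX5, a sorting nexin of endosomes (zone chr20:17921600-17941599, minus strand), had the highest fold enrichment of its zone at 7.82, 6.88 and 8.22 in active libraries and 6.67, 5.37 and 6.13 in inactive libraries. BRD2, a bromodomain reader of acetylated histones (zone chr6:32981506-33001505, plus strand), had 5.39, 5.68 and 5.49 against 6.43, 5.68 and 5.65. Its peaks ended at 2425, 2696 and 2251 bp with active and 2978, 2054 and 1972 bp with inactive SCP1, with overlap. LDHB, a lactate dehydrogenase subunit (zone chr12:21615342-21635341, minus strand), carried a compact peak that began at 613 to 783 bp and ended at 1433 to 1833 bp in all 6 libraries. TRA2B, a splicing regulator (zone chr3:185894558-185914557, minus strand), ended at 3883 to 4076 bp with active and 3694 to 4085 bp with inactive SCP1. At UBE2G2, a ubiquitin-conjugating enzyme, the reach was 4197, 2763 and 20000 bp against 2222, 726 and 2871 bp, the active replicate 3 value coming from a further peak at the zone edge.

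The 5 zones with the widest gap in reach between groups were those of YBX1, POLL, ZNF207, BRF1 and TMPO. At YBX1 (zone chr1:42703806-42723805, plus strand) the reach was 15991, 14645 and 14497 bp with active and 2084, 2406 and 1331 bp with inactive SCP1. The active values came from separate peaks beyond 12 kb, since the joined run from the TES ended at 3120, 1921 and 3240 bp, with active replicate 2 below inactive replicates 1 and 2. POLL, the DNA polymerase lambda (zone chr10:101558882-101578881, minus strand), reached the zone edge at 20000 bp in each active library and 3161, 1424 and 8647 bp in the inactive ones. The edge peaks were separate from those near the TES and ran on to 20042, 20114 and 20701 bp. The next gene, BTRC, lay at 21569 bp. Covered length at POLL was 9885, 3806 and 15436 bp against 2658, 459 and 822 bp. ZNF207, a zinc finger protein of the mitotic spindle (zone chr17:32381886-32401885, plus strand), reached 15324, 12301 and 15257 bp against 7854, 3166 and 3585 bp, and its joined run ended at 4127, 5674 and 10137 bp against 3328, 3166 and 3585 bp. BRF1, a subunit of the RNA polymerase III factor TFIIIB (zone chr14:105189286-105209285, minus strand), reached 9252, 7996 and 18415 bp against 6073, 6345 and 5539 bp. TMPO, a protein of the nuclear lamina, reached 5956, 5952 and 5913 bp against 4317, 4277 and 3113 bp. These zones were ranked by that gap, so no test is given.

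**Figure D5:**
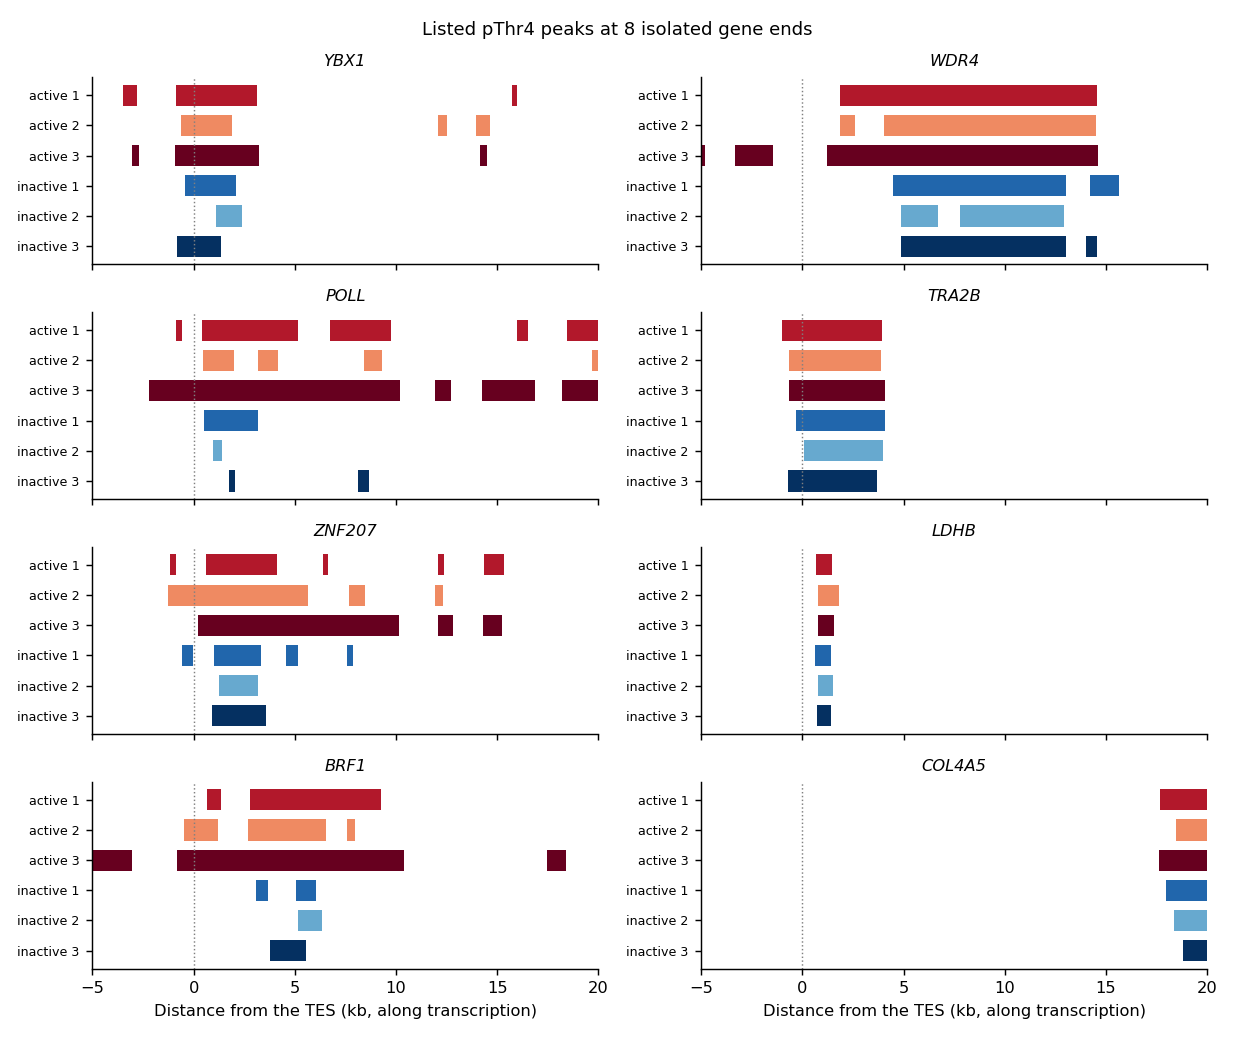
Listed peaks (bars) from 5 kb before to 20 kb past the TES at 8 isolated gene ends, one row per library, all zones drawn along transcription. YBX1 shows separate distal bars in the active libraries alone, POLL shows them in the active libraries and a single one near 8 kb in inactive replicate 3, LDHB one compact bar per library, and COL4A5 bars at the far edge in all 6.

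Among zones of the gene groups with peaks in all 6 libraries, the peaks of the named ribosomal protein genes ended within 1822 bp past the TES. Such ends were not particular to them, since LDHB peaks ended at 1433 to 1833 bp. RPL37 peaks began inside the gene as annotated, with a length of 9961 bp, at −3437 bp or further before the TES. They ended 1105, 400 and 1084 bp past the annotated TES with active and 337, 55 and 28 bp with inactive SCP1. At RPL22L1 they ended at 337, 592 and 379 bp against 298, 100 and 614 bp, with overlap. RPL6 ended at 1822, 1810 and 1815 bp against 1544, 1543 and 1817 bp. DDX56, whose promoter is printed above (zone chr7:44545804-44565803, minus strand), ended at 4112, 5120 and 5159 bp against 2593, 2622 and 3950 bp, without overlap. SNRPB ended at 2678, 2683 and 7189 bp against 2943, 2936 and 2936 bp, with overlap. SLC7A5, a large neutral amino acid transporter, ended at 4427, 2305 and 17168 bp against 1991, 2147 and 1984 bp. USP9X, a deubiquitinase, ended at 2824, 1832 and 12532 bp against 2304, 1776 and 1534 bp. The distal values of SLC7A5 and USP9X were from active replicate 3 alone. ZNF227, next to other zinc finger genes, had peaks past 13 kb in 5 libraries and ended at 3293 bp in inactive replicate 3.

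Of the 3523 zones, 97 had a peak in all 3 active and in no inactive library, or 2.75%, below the 7.69% of all gene ends with that pattern. In lists of equal peak number 4 zones had it, 0.114% beside 0.421% of all gene ends, and with the common p cutoff 8 had it, 0.227% beside 1.27%. The reverse pattern was found at 0 zones as deposited, beside 0.0% of all gene ends, at 2 zones (0.0568% beside 0.216%) at equal peak number and at 0 zones with the common p cutoff, beside 0.00601%. The strongest of the 97 by their lowest active fold enrichment were those of MAP4K5, UFM1, ZMIZ2, ANKRD36B, CFAP20, MFHAS1, GPT2, TAF4, UCK2 and ARID5A, with lowest values from 3.62 to 3.84. UFM1, a ubiquitin-like modifier (zone chr13:38363620-38383619, plus strand), carried a narrow peak that ended at 529, 447 and 584 bp. CFAP20, a cilia protein (zone chr16:58093592-58113591, minus strand), had a peak from 763, 823 and 862 bp to 2050, 2424 and 2795 bp. MAP4K5, a kinase (zone chr14:50398521-50418520, minus strand), reached 6631, 3059 and 13500 bp. TAF4, a subunit of TFIID (zone chr20:61954798-61974797, minus strand), reached 9289, 4966 and 9298 bp. ANKRD36B belongs to a family of near-identical copies, so its peak at 2139 to 2503 bp is uncertain.

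Zones seen in at least 2 libraries of a group numbered 554 with active and 110 with inactive SCP1, and 110 were in both, 100% of the inactive and 19.9% of the active set. A further 581 zones had a peak in active replicate 3 alone. These counts were not computed over all gene ends, and every active list was longer than every inactive one. The overlap is therefore not read as a trait of isolated ends. Peaks in an inactive and no active library were found at 10 zones, 0.284% beside 0.234% of all gene ends, each in a single library. This count was 45 (1.28% beside 2.99%) at equal peak number and 16 (0.454% beside 0.667%) with the common p cutoff. The strongest by fold enrichment were EFNA5, ZNF66, BCAT1, IRS2 and RNASEH2B, from 3.64 to 4.05. In 2286 zones (64.9%) no library had a peak, which for a broad-peak list does not show that pThr4 was absent.

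The zones seen in all 6 libraries, 1.65% of members beside 6.13% of all gene ends, belonged to shorter genes. Their median gene length was 23.7 kb, against 63.7 kb for the 97 zones seen in the active group alone and 55.6 kb for zones without a peak. Median fold enrichment in active replicate 1 was 4.27 in the first and 3.54 in the second of these sets, and the sets were defined by the same peaks. CALB2, MYBL1 and NCKAP5L, the members nearest above it at 20008, 20010 and 20016 bp, had no peak in any library apart from NCKAP5L in active replicate 3. Just outside it, SAMD12 at 19999 bp and CDH26 at 19991 bp had none, and ACTR2 at 19998 bp had peaks in active replicates 1 and 3 and inactive replicate 3.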

How the data were processed

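Peak lists of 6 pThr4 ChIP-seq libraries were analysed. Per the labels, the submitters' processing notes name cutadapt 4.6, Bowtie2 2.5.2, FastQC and hg38. The peak caller's version, its control and its filters are not given in the sources used here. Peaks were deposited per library, not on pooled replicates. For each peak the authors deposited a fold enrichment (a ratio over the caller's background), a score, and p-values and q-values as −log10. The deposited score is the −log10 q-value times 10 without decimals and was not used. The lowest −log10 q-value was just above 1, as a cutoff of 0.1 leaves. Fold enrichment has no common scale across libraries. Peak names of replicate 3 differ from those of replicates 1 and 2 in both groups, and what this marks is not given. The lists hold no read counts, so no counting interval of signal could be given and precision rests on 3 replicates per group. The limit given for gene groups with a count of 0 is 3 divided by the number of zones.

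Genes were those of the RefSeq GRCh38.p14 table on chromosomes 1 to 22 and X. Strand came from the RefSeq promoter table for 15812 of 19974 protein-coding genes and from GENCODE by symbol and chromosome for 3818. The sources gave the same strand for 15197 of 15260 shared genes, 702 members rest on GENCODE, and 181 genes of at least 5 kb without strand were left out. A peak counted from 1 bp of overlap. A promoter peak lay within 1 kb of the gene start. No GRCh38 sequence of the zones was used here, so the planned count of sequence motifs at the gene end was not run.

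Groups were compared by two-sided exact permutation over the 20 assignments of libraries, or by exact sign flips over 6 libraries. None of the 9 main values compared between groups, nor the further values compared beside them, can pass below 0.1, before or after adjustment. Scripts used Python 3.11.15, numpy 2.4.6 and pandas 2.3.3 and were tested on simulated intervals. Alternatives were equal peak number, a common −log10 p-value of 6, a −log10 q-value of at least 2, an overlap of 500 bp, isolation of 50 kb, genes of at least 20 kb, strand from RefSeq only (added after seeing the data), each library left out, replicates 1 and 2 only, a replicate block and joined runs of peaks. Named genes were, of zones in all 6 libraries, the 10 with the largest lowest reach (1 of them is not reported here), the 6 with the highest lowest fold enrichment and the 5 with the widest gap in reach between groups. Also named were the 10 strongest zones of the active group alone, the 5 strongest of the inactive group alone, 3 genes either side of the isolation limit and up to 3 per gene group by lowest fold enrichment. The members, groups and rules were chosen with earlier results of these data known.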

Additional observations from a re-analysis of the deposited data

How the results depend on the processing

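Groups of 3 libraries cannot give an exact permutation p under 0.1, so no comparison of active with inactive SCP1 could pass 0.05 under any setting, and only directions and sizes can be followed. The start of the first peak turned to −499.7 bp at equal peak number and −233 bp with the common p cutoff, from 295 bp as deposited. The log2 ratio of fold enrichment between groups turned to −0.037 at equal peak number, −0.043 with the common p cutoff, −0.0049 at a −log10 q-value of at least 2 and −0.015 at an overlap of 500 bp, from 0.012. The difference in −log10 p-value turned to −0.280 and −0.243 at equal peak number and with the common p cutoff, from 0.234. The difference between groups in the position of the highest bin moved from 0 to −167 bp at equal peak number, at a −log10 q-value of at least 2 and for genes of at least 20 kb, to −333 bp with the common p cutoff and to 500 bp with no gene within 50 kb. The count of zones in the active group alone was 97 as deposited, 4 at equal peak number, 8 with the common p cutoff, 36 at a −log10 q-value of at least 2 and 25 with no gene within 50 kb. The cause of these changes was not tested.

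With each library left out in turn that count ranged from 102 to 298, the highest without active replicate 2, and the log2 ratio of the share of zones with a peak ranged from 1.80 to 2.66. The median reach difference ranged from 539 to 2428 bp and was lowest without active replicate 3. With 5 libraries the sign-flip test cannot go below 0.0625, so the comparisons with other windows no longer passed 0.05 by construction. Their log2 ratios then ranged from −2.15 to −2.06 against other gene ends, from 3.75 to 4.40 against windows before isolated starts and from 1.12 to 1.30 against the last 5 kb of the genes.

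Replicate numbers are shared by the groups. Over 1237 zones, deviations of same-numbered libraries correlated at −0.021, 0.198 and 0.056, and those of differently numbered libraries at −0.168 to 0.113. The highest value belonged to a shared number, but the ranges overlapped, so the numbers are not shown to pair the libraries. The labels name matched aliquots without saying that a number marks 1 lysate. With the replicate block the log2 ratio of the share of zones with a peak was 2.26 and the reach difference 1714 bp, with an exact sign-flip permutation p of 0.25, the smallest that 3 pairs allow.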
